A study of Mus musculus with 2 samples.

Results

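Lymphatic endothelial cells (LECs), which line the vessels that drain tissue fluid and immune cells from the heart, were picked by their own transcripts from single-cell RNA libraries of mouse heart. A member had at least 1 UMI (unique molecular identifier, 1 counted RNA molecule) in at least 2 of Prox1, Mmrn1, Ccl21a, Reln and Flt4, and in at least 1 of the pan-endothelial genes Pecam1, Cdh5 and Egfl7. It also had no Ptprc UMI, and Dcn, Col1a1, Col1a2 and Col3a1 together made up under 0.3% of its UMIs. Of 15964 kept cells 380 were members, 313 of 8000 in the TAC library and 67 of 7964 in the sham library. Both libraries came from non-cardiomyocytes of hearts of male C57BL6/J wildtype mice, on day 20 after transverse aortic constriction (TAC), a surgical narrowing that raises the pressure against which the left ventricle pumps, or after the sham operation. Each group was 1 library, and the age and number of mice behind it were not given in the sources used here. Hearts had been digested with enzymes, cardiomyocytes had settled out, red cells had been lysed and viable cells had been sorted.

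Lymphatic endothelium is set apart from blood endothelium by the transcription factor PROX1, which switches on lymphatic genes in cells of venous origin. VEGF-C and VEGF-D from neighbouring cells act on the receptor VEGFR-3, encoded by Flt4, to drive growth of lymphatic vessels. Initial lymphatics take up fluid and immune cells, guided by the chemokine CCL21, and collecting vessels move lymph forward through valves. In the heart these vessels are known to carry away oedema fluid and inflammatory cells after injury.

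The markers of the rule were seen together in most members. All 5 were seen in 229 of 313 TAC members and 22 of 67 sham members, and 4 of the 5 in 62 TAC and 29 sham members. TAC members were deeper, with a median of 7833 UMIs (1833 to 38423) against 2642 UMIs (1014 to 10899) in sham members. In the 5 marker genes themselves, which chose the cells, summed levels were Ccl21a 16694 CPM in TAC and 15429 CPM in sham, Mmrn1 3302 CPM in TAC and 3688 CPM in sham, Flt4 734 CPM in TAC and 899 CPM in sham, Reln 729 CPM in TAC and 678 CPM in sham and Prox1 342 CPM in TAC and 323 CPM in sham. CPM is counts per 1e6 UMIs summed over the class in a library. Ccl21a (ENSMUSG00000094686, mm10 chromosome 4, 42772860 to 42773993), the chemokine that draws CCR7-bearing leukocytes, has near-identical copies, so its count is uncertain between them. At the lower edge of the rule, 12 TAC and 2 sham members had only 2 markers. Of those 12 TAC cells 10 held a UMI of Flt1, the VEGF-A receptor of blood endothelium, and only 1 a UMI of Lyve1. Just outside it, 1 marker was seen in 146 TAC and 20 sham cells that met the other criteria, of which 127 TAC and 16 sham cells held Flt1, and 4 in each library held Lyve1. Among members with 3 or more markers, Flt1 was seen in 5 of 301 TAC and 0 of 65 sham cells. Most of the 2-marker TAC cells thus carried blood endothelial RNA. Without the 2-marker cells all 30 TAC-against-sham genes named below kept their ratios within counting error, while Fabp4, Flt1 and Ly6c1 were lower still in LECs.

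The label was set beside lymphatic genes that the rule did not use, in lists chosen with earlier results of these data known. Lyve1, the hyaluronan receptor of initial lymphatics, was seen in 90.1% of TAC and 91.0% of sham members, and Pdpn, podoplanin, in 91.4% of TAC and 71.6% of sham members. Of the 12 measured lymphatic surface genes 6 were at least 2-fold higher than in blood endothelial cells in both libraries (Lyve1, Pdpn, Itga9, Thy1, Mrc1 and Ackr2). Cd200 was at least 2-fold lower in both, and the other 5 passed 2-fold in both libraries in neither direction. Among all 3866 genes measured for this contrast 4.99% were higher and 5.82% lower in both libraries. Defining genes of fibroblasts and macrophages were low. The 10 fibroblast markers summed to 565 CPM in TAC and 474 CPM in sham members, against 35339 CPM in TAC and 49759.5 CPM in sham fibroblasts. The 11 macrophage markers summed to 427 CPM in TAC and 382 CPM in sham members, with Mrc1, which lymphatic endothelium also makes, the highest of them. In TAC members all 11 had UMIs, with Lyz2 second at 109 CPM. In sham members, which were fewer and less deep, Csf1r, Adgre1, Cd68 and Fcgr1 were at 0. Blood endothelial markers summed to 2647 CPM in TAC and 1744 CPM in sham members, against 33881 CPM in TAC and 17916.5 CPM in sham blood endothelial cells, and Gja5 was at 0 in both libraries. The highest of them were Fabp4 (1115 CPM) and Gpihbp1 (773 CPM) in TAC members, and Gpihbp1 (694 CPM) and Fabp4 (522 CPM) in sham members. Of 11 measured blood endothelial markers 7 were at least 2-fold lower in members in both libraries and none higher. Gpihbp1 was not among the 7. Red cell genes stood apart, at 3131 CPM in TAC and 178 CPM in sham members. They were higher in TAC also in blood endothelial cells, at 6944 CPM in TAC and 121 CPM in sham, and in fibroblasts, at 1246 CPM in TAC and 448 CPM in sham. Their part in the results below was not tested.

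Members made up 3.91% of TAC cells (3.50 to 4.36, exact Clopper-Pearson 95% interval) and 0.841% of sham cells (0.653 to 1.07), a share 4.65-fold higher (3.56 to 6.15). All intervals here cover counting error only. Blood endothelial cells (BECs), defined by at least 2 of Pecam1, Cdh5 and Egfl7, none of Prox1, Mmrn1, Ccl21a and Reln, and the same limits on Ptprc and collagens, were also a larger share of the TAC library. They were 562 cells (7.03%) in TAC and 147 (1.85%) in sham, a ratio of 3.81 (3.17 to 4.60). BECs were not split into capillary, arterial and endocardial cells. Among both endothelial classes together LECs were 35.8% (32.6 to 39.0) in TAC and 31.3% (25.2 to 38.0) in sham, intervals that overlap. With every cell thinned to 1000 UMIs before the rule was applied the share ratio of LECs was 4.40 (3.31 to 5.95). The BEC ratio and the share of LECs among both classes were not recomputed at equal depth. BECs had a median of 4360 UMIs in TAC and 2207 UMIs in sham. The TAC library held 96003109 UMIs in 8901 barcodes, and the sham library 42490230 UMIs in 8426. They shared 15 barcodes, and no member barcode was among them. With 1 library per group the operation cannot be told apart from differences between digests, sorts or lanes, and these are shares of sorted cells.

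**Figure D1:**
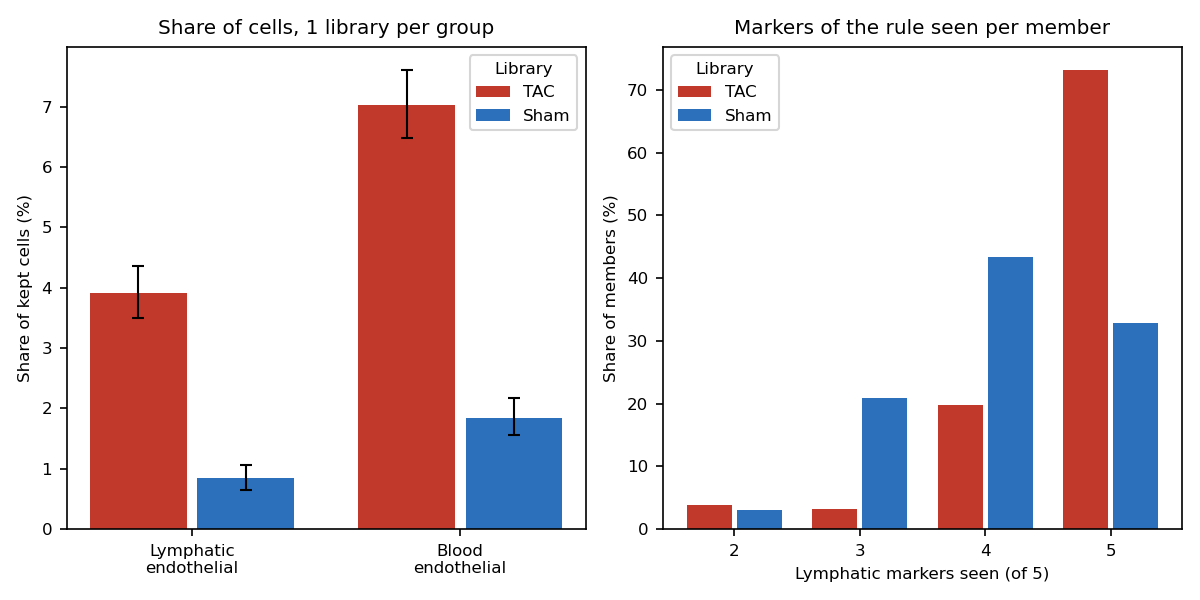
Left, share of kept cells (%) that were lymphatic or blood endothelial in the TAC and sham libraries, with exact 95% intervals for counting error. Right, share of members (%) with 2, 3, 4 or 5 of the lymphatic markers seen. Lymphatic cells were 3.91% of the TAC and 0.841% of the sham library, and all 5 markers were seen more often in the deeper TAC members.

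Identity genes were described within each library as the level in lymphatic over that in blood endothelial cells. Because endothelial and lymphatic genes chose both classes, this contrast carries no test. Prox1, Mmrn1, Ccl21a and Reln are at 0 in blood endothelial cells by definition. Of 3866 genes with a mean of at least 50 CPM over the 4 class sums, 193 (4.99%) were at least 2-fold higher in LECs in both libraries and 225 (5.82%) at least 2-fold lower, on a scale of CPM + 10. In the TAC library alone 7.11% were higher and 8.3% lower, and in the sham library alone 8.64% and 8.56%. Beyond the rule's genes, the genes most above BECs in both libraries were Lcn2, Fgl2, Pdpn, Lyve1, Maf, Tbx1, Thy1, Adgrg3, Slc45a3, Pard6g and Il7.

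Lcn2, the siderophore-binding lipocalin, was at 1331 CPM in LECs against 6.39 CPM in BECs in TAC, and 964 CPM in LECs against 0 CPM in BECs in sham. Fgl2, a fibrinogen-like protein with immune functions, was at 3024 CPM in LECs against 21.3 CPM in BECs in TAC, and 1825 CPM in LECs against 13.1 CPM in BECs in sham. Both were abundant in LECs and low in blood endothelium of the same libraries. Lyve1 was at 3151 CPM in LECs against 30.9 CPM in BECs in TAC, and 2842 CPM in LECs against 57.7 CPM in BECs in sham. Pdpn was at 663 CPM in LECs against 2.49 CPM in BECs in TAC, and 485 CPM in LECs against 0 CPM in BECs in sham. Thy1 stood at 553 CPM in LECs against 1.42 CPM in BECs in TAC, and 559.9 CPM in LECs against 15.7 CPM in BECs in sham. Il7, the cytokine that lymphatic vessels supply to lymphocytes, was at 187 CPM in LECs against 1.78 CPM in BECs in TAC, and 248 CPM in LECs against 0 CPM in BECs in sham. The gene lists here and below were chosen with earlier results of these data known, so counts of their members are a description only. Of the 20 measured further genes known from lymphatic endothelium, 17 were at least 2-fold higher in LECs in both libraries and none lower. The shares over all genes were 4.99% higher and 5.82% lower. Among them Lbp, which binds bacterial lipopolysaccharide, was at 1445 CPM in LECs against 105 CPM in BECs in TAC, and 781 CPM in LECs against 91.8 CPM in BECs in sham. Dtx1, an E3 ligase that acts on Notch signalling, was at 254 CPM in LECs against 1.07 CPM in BECs in TAC, and 215 CPM in LECs against 13.1 CPM in BECs in sham.

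Among transcription factors 5 of 15 measured were at least 2-fold higher in both libraries, namely Nr2f2, Tbx1, Foxc2, Maf and Hoxd8, and 2 were lower. For this and the next list, 4.99% of all genes were higher and 5.82% lower. Maf was at 524 CPM in LECs against 6.04 CPM in BECs in TAC, and 517 CPM in LECs against 2.62 CPM in BECs in sham. Tbx1, which acts upstream of Flt4 in mouse lymphatic development, was at 298 CPM in LECs against 0.710 CPM in BECs in TAC, and 269 CPM in LECs against 0 CPM in BECs in sham. Nr2f2, the venous factor that cooperates with Prox1, was also well seen in blood endothelium, at 661 CPM in LECs against 208 CPM in BECs in TAC, and 754 CPM in LECs against 149.5 CPM in BECs in sham. In the list of valve and collecting vessel genes, 5 of 13 were higher in both libraries, among them Foxc2, a factor that valve formation needs. Foxc2 was at 129 CPM in LECs against 13.5 CPM in BECs in TAC, and 118 CPM in LECs against 21.0 CPM in BECs in sham. Of the junction genes Cldn5, the endothelial claudin, was at 1164 CPM in LECs against 387 CPM in BECs in TAC, and 894 CPM in LECs against 249 CPM in BECs in sham. Angpt2, the angiopoietin that acts on lymphatic Tie2, was at 82.0 CPM in LECs against 13.5 CPM in BECs in TAC, and 118 CPM in LECs against 2.62 CPM in BECs in sham. The guidance cue Sema3d was at 177 CPM in LECs against 11.4 CPM in BECs in TAC, and 248 CPM in LECs against 28.9 CPM in BECs in sham.

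Genes lower in LECs included those of lipid uptake and VEGF-A signalling in blood capillaries. The fatty acid carriers Fabp4 and Fabp5 and the scavenger receptor Cd36, which take lipid through cardiac capillaries, were among the 15 largest differences. Fabp4 was at 1115 CPM in LECs against 24168 CPM in BECs in TAC, and 522 CPM in LECs against 13677 CPM in BECs in sham. Cd36 was at 70.6 CPM in LECs against 2839 CPM in BECs in TAC, and 43.1 CPM in LECs against 1425 CPM in BECs in sham. Without the 2-marker cells Fabp4 was at 729 CPM in TAC and 456 CPM in sham LECs, and Cd36 at 22.5 CPM in TAC and 44.0 CPM in sham LECs. Flt1 was at 19.4 CPM in LECs against 729 CPM in BECs in TAC, and 26.9 CPM in LECs against 632 CPM in BECs in sham. Without the 2-marker cells it was at 4.51 CPM in TAC and 0 CPM in sham LECs. Nrp1, the VEGF-A co-receptor, was at 15.9 CPM in LECs against 884 CPM in BECs in TAC, and 16.1 CPM in LECs against 561 CPM in BECs in sham. Nrp2, the VEGF-C co-receptor, ran the other way, at 531 CPM in LECs against 322 CPM in BECs in TAC, and 528 CPM in LECs against 181 CPM in BECs in sham, short of 2-fold in TAC. Vegfc itself was at 2.38 CPM in LECs against 199 CPM in BECs in TAC, and 0 CPM in LECs against 296 CPM in BECs in sham, so blood endothelium held the ligand in both libraries while LECs were at or near 0. Of 28 measured blood endothelial genes 19 were at least 2-fold lower in LECs in both libraries and none higher, against 5.82% and 4.99% of all genes. Rgcc, Ly6c1, Sparcl1, Aplnr, the apelin receptor, Srgn, Slc6a6, Jam2, Car8 and C1qtnf9 made up the rest of the 15 named.

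**Figure D2:**
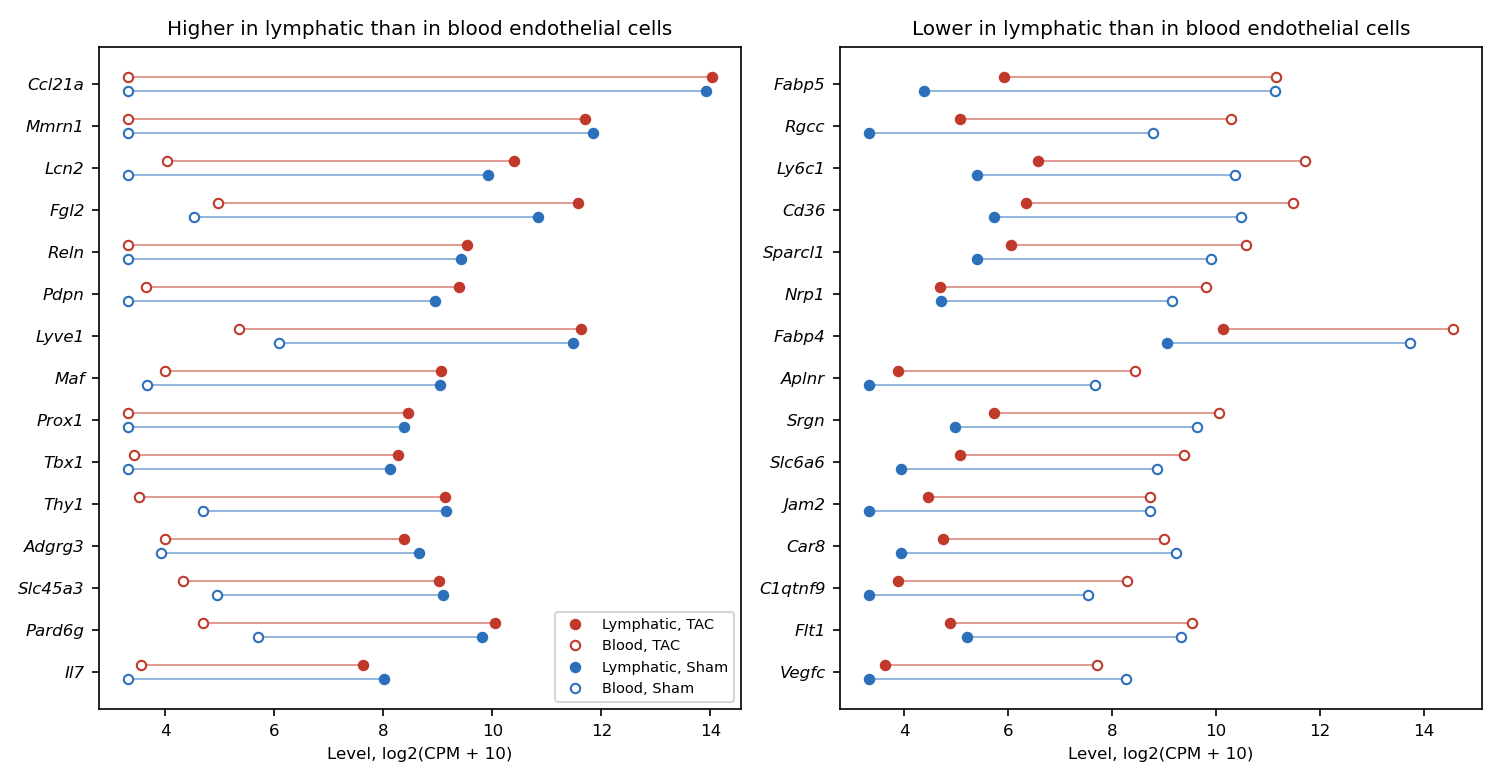
Levels as log2(CPM + 10) of the 15 genes with the largest differences in each direction between lymphatic (filled) and blood endothelial cells (open) in the TAC (red) and sham (blue) libraries. For every gene shown the order of the classes is the same in both libraries, as the naming rule required.

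After thinning each cell to 1600 UMIs, which kept all 313 TAC and 55 of 67 sham members, Igfbp5, Ccl21a, Fos, Cyr61, Junb, Fth1 and Klf2 varied most between cells in both libraries, by the variance over the mean. For Ccl21a this was 17.9 in TAC and 8.65 in sham, against medians of 1.07 in TAC and 1.09 in sham over 1147 genes with a mean of at least 0.2 UMIs. Ccl21a had a median of 26 UMIs per cell in both libraries, with quartiles of 8 and 44 in TAC and 16 and 35 in sham. Ccl21a is one of the genes that chose the members, so its values are a description only. Igfbp5, an IGF-binding protein that the rule did not use, had a variance over mean of 12.1 in TAC and 10.3 in sham. Lyve1 had a median of 5 (quartiles 1 and 8) in TAC and 4 (2 and 6.5) in sham. Fabp4 reached 53 UMIs in 1 TAC cell but had a median of 0 in both libraries. Cell cycle genes (Mki67, Top2a, Ccnb1, Ccnb2, Cdk1, Birc5, Ube2c, Cenpf) were seen in 5 of 313 thinned TAC cells and 0 of 55 sham cells, and at full depth in 18 of 313 TAC and 1 of 67 sham cells.

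**Figure D3:**
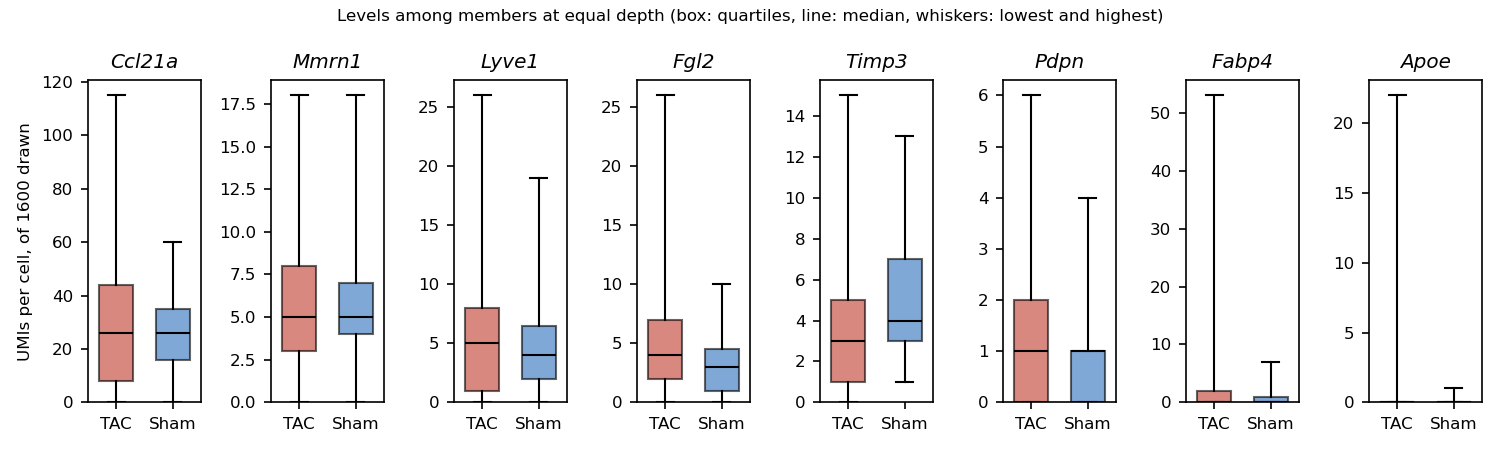
UMIs per member after each cell was thinned to 1600 UMIs, for 8 genes, in the TAC (left) and sham (right) libraries of each panel. Boxes give quartiles, lines medians and whiskers the lowest and highest cell. The Ccl21a medians are 26 in both libraries.

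Pressure overload was then set against sham within LECs, from UMI sums of 2523000 in TAC and 185758 in sham. In TAC cells the secreted proteins Lrg1, Serpina3n, Ptx3 and Nts, the stress gene Ddit4 and the glycolytic Gapdh stood higher. The heat shock genes Hspa1a, Hspa1b and Hspb1, the fatty acid hydroxylase gene Cyp4b1 and the growth factor gene Pgf stood lower. Of 3772 genes with a mean of at least 50 CPM over both libraries, 121 (3.21%) were at least 2-fold higher in TAC and 107 (2.84%) at least 2-fold lower, on the scale of CPM + 10. The median log2 ratio of all 3772 genes was -0.12, and ratios are read against it. Counts of list members past 2-fold are likewise read against 3.21% higher and 2.84% lower. With median-of-ratios scaling, which moves that median to near 0, the split was 159 higher and 69 lower. Blood endothelial cells gave 106 higher (2.78%) and 121 lower (3.18%) of 3807 genes, and fibroblasts 99 (2.98%) and 68 (2.04%) of 3327. There is no replicate, so these counts describe 2 libraries, and TAC members were the deeper ones. The fold changes below carry exact conditional 95% intervals for counting error.

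Several of the higher genes encode secreted proteins, and Lrg1 was the most abundant of these. Lrg1 (ENSMUSG00000037095, mm10 chromosome 17, 56119678 to 56122001), a secreted leucine-rich glycoprotein that modulates TGF-beta signalling in endothelium, was at 2181 CPM in TAC cells and 242 CPM in sham cells. The log2 ratio was 3.12, and the fold interval 6.72 to 12.4. It was seen in 80.2% (75.3 to 84.5) of TAC cells and 30.9% (19.1 to 44.8) of sham cells at equal depth, against 0.259% of TAC and 0.0342% of sham fibroblasts. Blood endothelial cells had a lower level and the same direction, 407 CPM in TAC and 18.4 CPM in sham. Serpina3n (ENSMUSG00000021091, mm10 chromosome 12, 104406729 to 104414329), a serine protease inhibitor of the acute phase, was at 348 CPM in TAC cells and 21.5 CPM in sham cells, 16.1-fold higher (6.28 to 59.4), with 4 UMIs in sham. Fibroblasts were also higher for it, at 379 CPM in TAC and 53.9 CPM in sham, while blood endothelial cells held 10.7 CPM in TAC and 0 CPM in sham. Serpina3n was seen in 38.7% (33.2 to 44.3) of TAC cells and 5.45% (1.14 to 15.1) of sham cells at equal depth. Ptx3, the long pentraxin that binds microbes and matrix, was at 296 CPM in TAC cells and 70.0 CPM in sham cells, 4.23-fold higher (2.46 to 7.98). Its log2 ratio was 1.94, and 0.99 with cells thinned to equal depth. The thinned shares, 17.9% (13.8 to 22.6) of TAC cells and 10.9% (4.11 to 22.2) of sham cells, overlap in their intervals. Clca3a1, a calcium-activated chloride channel regulator, was at 318 CPM in TAC cells and 70.0 CPM in sham cells, 4.54-fold higher (2.64 to 8.57), with 13.9 CPM in TAC and 5.25 CPM in sham blood endothelial cells.

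Nts, neurotensin, a peptide made by lymphatic endothelium, was at 1074 CPM in TAC cells and 275 CPM in sham cells, 3.91-fold higher (2.97 to 5.27). In blood endothelial cells it was at 94.5 CPM in TAC and 317 CPM in sham, the opposite direction. Adamts5, an aggrecanase and versican-cleaving protease, was at 208 CPM in TAC cells and 26.9 CPM in sham cells, 7.75-fold higher (3.30 to 24.0), where sham held 5 UMIs. Fibroblasts and blood endothelial cells were both lower in TAC for it, with 419.8 CPM in TAC and 944 CPM in sham fibroblasts, and 90.6 CPM in TAC and 213 CPM in sham blood endothelial cells. Fn1, fibronectin, which lymphatic valves need for their leaflets, was at 193 CPM in TAC cells and 32.3 CPM in sham cells, 5.99-fold higher (2.73 to 16.4). At equal depth Fn1 was seen in 21.9% of TAC and 7.29% of sham fibroblasts, the same direction. In blood endothelial cells the shares were 8.94% in TAC and 17.4% in sham. Sox4, a transcription factor, was at 198 CPM in TAC cells and 32.3 CPM in sham cells, 6.14-fold higher (2.80 to 16.8), and Spsb1, a SOCS-box protein, at 162 CPM in TAC cells and 21.5 CPM in sham cells, 7.51-fold higher (2.91 to 27.7). Plat, tissue plasminogen activator, rested on 3 sham UMIs, at 103 CPM in TAC cells and 16.1 CPM in sham cells. These genes were thus low in sham LECs, and their folds have wide intervals. Postn, periostin, was at 157 CPM in TAC cells and 32.3 CPM in sham cells, but TAC fibroblasts held 1291 CPM, so its LEC level was near the limit, 10% of the level in the richest class, set as a bound on free RNA. Its log2 ratio was 1.98, and 4.05 at equal depth. Cxcl10, first by size at 125 CPM in TAC cells and 0 CPM in sham cells, had 311 of its 315 UMIs in 1 cell, and its log2 ratio was 0.21 without that cell.

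Glycolysis and hypoxia genes had a median log2 ratio of 0.63 over 15 measured members, 3 of them at least 2-fold higher and none lower. The 3 were glycolytic, and Hif1a, Egln1 and Ndrg1 had the lowest ratios of the list, down to -0.38. Among all genes 3.21% were higher and 2.84% lower. Gapdh was at 495 CPM in TAC cells and 102 CPM in sham cells, 4.84-fold higher (3.09 to 8.07). Eno1, enolase, was at 204 CPM in TAC and 75.4 CPM in sham, and Pfkl, phosphofructokinase, at 109 CPM in TAC and 43.1 CPM in sham. The same list had a median of 0.48 in blood endothelial cells and 0.32 in fibroblasts, where all genes had -0.09 and -0.07. With median-of-ratios scaling the LEC median was 0.75. Ddit4, an inhibitor of mTORC1 induced by stress and glucocorticoid, was at 176 CPM in TAC cells and 5.38 CPM in sham cells, 32.6-fold higher (5.82 to 1291), from 1 sham UMI. Ddit4 was higher in all 3 classes, with 313 CPM in TAC and 13.1 CPM in sham blood endothelial cells, and 112 CPM in TAC and 21.7 CPM in sham fibroblasts. Of 12 glucocorticoid-responsive genes 3 were higher, Ddit4, Fkbp5 and Errfi1, with a median of 0.47, against 0.74 in blood endothelial cells. Tmsb10, thymosin beta 10, was at 1799 CPM in TAC cells and 404 CPM in sham cells. Oxidative phosphorylation subunits had a median of 0.17 over 31 members, with 5 higher and none lower, and 0.03 at equal depth.

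Matrix and basement membrane genes had a median of 0.52 over 18 members, with 3 at least 2-fold higher, Fn1, Fbln2 and Bgn. Fbln2, fibulin 2, was at 514 CPM in TAC cells and 145 CPM in sham cells, 3.54-fold higher (2.42 to 5.39), and Bgn, biglycan, at 307 CPM in TAC cells and 91.5 CPM in sham cells. Fibroblast levels of Bgn were far above these, 7164 CPM in TAC and 2631 CPM in sham. Medians were 0.68 in blood endothelial cells and 0.36 in fibroblasts. In the BMP and TGF-beta list 2 of 16 genes were higher, Ctgf at 284 CPM in TAC and 108 CPM in sham, and Cyr61 at 1693 CPM in TAC and 834 CPM in sham, and the list median was -0.13. Fibroblast marker genes summed to 565 CPM in TAC and 474 CPM in sham LECs, and their part in these values was not tested. Of the 18 matrix genes 16 were at 10% or more of their level in the other classes, and Bgn was not.

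Lower genes included Cyp4b1, Pgf, Btnl9, Itih5, Efna1, Ggct, Gatm, Ier5l, Ptn, Ccnd2, Pcp4l1 and Tnfaip2 beside the heat shock genes. Cyp4b1, a cytochrome P450 that hydroxylates fatty acids, was at 107 CPM in TAC cells and 506 CPM in sham cells, 4.71-fold lower (3.69 to 5.98). At equal depth it was seen in 12.1% (8.74 to 16.3) of TAC cells and 50.9% (37.1 to 64.6) of sham cells. In blood endothelial cells the share was higher in TAC, at 13.3% (10.6 to 16.5) against 6.42% (2.62 to 12.8) in sham, intervals that overlap. Pgf, placental growth factor, a ligand of Flt1, was at 76.5 CPM in TAC cells and 355 CPM in sham cells, 4.64-fold lower (3.46 to 6.17), and lower in TAC also in blood endothelial cells, 28.8 CPM in TAC and 108 CPM in sham, and fibroblasts, 32.5 CPM in TAC and 168 CPM in sham. Btnl9, a butyrophilin-like protein, was at 58.3 CPM in TAC cells and 269 CPM in sham cells, 4.62-fold lower (3.28 to 6.41), while blood endothelial cells held 217 CPM in TAC and 131 CPM in sham. Efna1, an ephrin ligand of EPHA receptors, was at 53.9 CPM in TAC cells and 215 CPM in sham cells, 3.99-fold lower (2.73 to 5.72), and Ccnd2, a D-type cyclin, at 80.9 CPM in TAC cells and 269 CPM in sham cells, 3.33-fold lower (2.39 to 4.56). The Notch target Hes1 was at 256 CPM in TAC and 528 CPM in sham, and in blood endothelial cells at 153 CPM in TAC and 231 CPM in sham. Hey1, another Notch target, was at 28.5 CPM in TAC and 80.8 CPM in sham, and in blood endothelial cells at 55.8 CPM in TAC and 147 CPM in sham. Both were lower in TAC in each endothelial class. Of the 4 Notch genes measured 2 were at least 2-fold lower, and the median was -0.82.

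Heat shock genes had a median log2 ratio of -0.45 over 16 measured members, 3 at least 2-fold lower and none higher. The median was -0.20 at equal depth, and -0.62 in blood endothelial cells. Hspa1a (ENSMUSG00000091971, mm10 chromosome 17, 34969190 to 34972156), an inducible HSP70, was at 24.6 CPM in TAC cells and 231 CPM in sham cells, 9.42-fold lower (6.23 to 14.1), and its near-identical neighbour Hspa1b at 129 CPM in TAC cells and 694 CPM in sham cells, 5.39-fold lower (4.36 to 6.63). Their reads are hard to assign, so the 2 counts are uncertain between them. The small chaperone Hspb1 was at 120.1 CPM in TAC cells and 404 CPM in sham cells, 3.36-fold lower (2.58 to 4.34). These genes were lower in TAC also in blood endothelial cells, where Hspa1a had 197 CPM in TAC and 638 CPM in sham, Hspa1b 280.2 CPM in TAC and 916 CPM in sham, and Hspb1 856 CPM in TAC and 1724 CPM in sham. The co-chaperone Dnaja1 was at 329 CPM in TAC and 614 CPM in sham, and Hspe1, the co-chaperonin of mitochondria, at 139.9 CPM in TAC and 221 CPM in sham. In sham 1 cell held 20 of 43 Hspa1a UMIs, and without the richest cell of each library its log2 ratio was -2.24 in place of -2.80. At equal depth Hspa1a was seen in 2.24% (0.904 to 4.55) of TAC cells and 9.09% (3.02 to 20.0) of sham cells, intervals that overlap. At full depth, where TAC cells were deeper, it was seen in 10.2% of TAC and 10.4% of sham cells.

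The 5 heat shock genes above share letters of the heat shock element, the site of the factor HSF1, in the 250 bases before their start. The motif GAANNTTC, which reads the same on both strands, was found in 5 of the 12 list members with a RefSeq promoter, and in 6.78% of all 27025 promoter windows of that length (GRCm38.p6). A match is a description of letters and was not tested as a site. In the following, 5′ to 3′ on the gene's strand, capitals mark the match. The Hspa1a and Hspa1b windows share 247 of 250 letters in order.
Hspa1a, chr17:34972157-34972406, minus strand: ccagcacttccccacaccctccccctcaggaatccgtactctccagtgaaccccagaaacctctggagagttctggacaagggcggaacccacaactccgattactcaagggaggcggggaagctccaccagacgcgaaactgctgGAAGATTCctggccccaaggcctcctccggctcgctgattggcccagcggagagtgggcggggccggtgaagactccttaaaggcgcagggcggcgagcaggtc
Hspa1b, chr17:34959239-34959488, minus strand: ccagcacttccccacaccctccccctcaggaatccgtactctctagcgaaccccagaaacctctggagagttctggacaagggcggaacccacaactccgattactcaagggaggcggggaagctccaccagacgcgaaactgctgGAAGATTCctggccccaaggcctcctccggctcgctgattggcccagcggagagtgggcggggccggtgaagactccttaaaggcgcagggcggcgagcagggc
Hspb1, chr5:135887669-135887918, plus strand: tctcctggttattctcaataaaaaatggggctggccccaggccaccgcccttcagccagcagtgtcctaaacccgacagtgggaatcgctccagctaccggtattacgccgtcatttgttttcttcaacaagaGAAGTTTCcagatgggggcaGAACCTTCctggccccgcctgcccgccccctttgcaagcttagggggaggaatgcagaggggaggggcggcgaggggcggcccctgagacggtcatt
Dnaja1, chr4:40722218-40722467, plus strand: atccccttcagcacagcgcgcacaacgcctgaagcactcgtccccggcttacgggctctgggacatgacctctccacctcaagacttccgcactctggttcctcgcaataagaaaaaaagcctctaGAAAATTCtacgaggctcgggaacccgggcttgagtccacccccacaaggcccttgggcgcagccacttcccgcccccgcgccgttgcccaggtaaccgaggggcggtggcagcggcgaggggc
Hspe1, chr1:55087898-55088147, plus strand: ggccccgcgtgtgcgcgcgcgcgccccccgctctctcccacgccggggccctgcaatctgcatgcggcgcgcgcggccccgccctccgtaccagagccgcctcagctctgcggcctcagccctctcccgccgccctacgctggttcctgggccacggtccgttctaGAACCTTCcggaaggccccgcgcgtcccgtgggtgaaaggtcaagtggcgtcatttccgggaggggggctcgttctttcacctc
The first matching base lies 104 bases before the start in Hspa1a and Hspa1b, 117 and 97 in Hspb1, 124 in Dnaja1 and 84 in Hspe1.

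**Figure D4:**
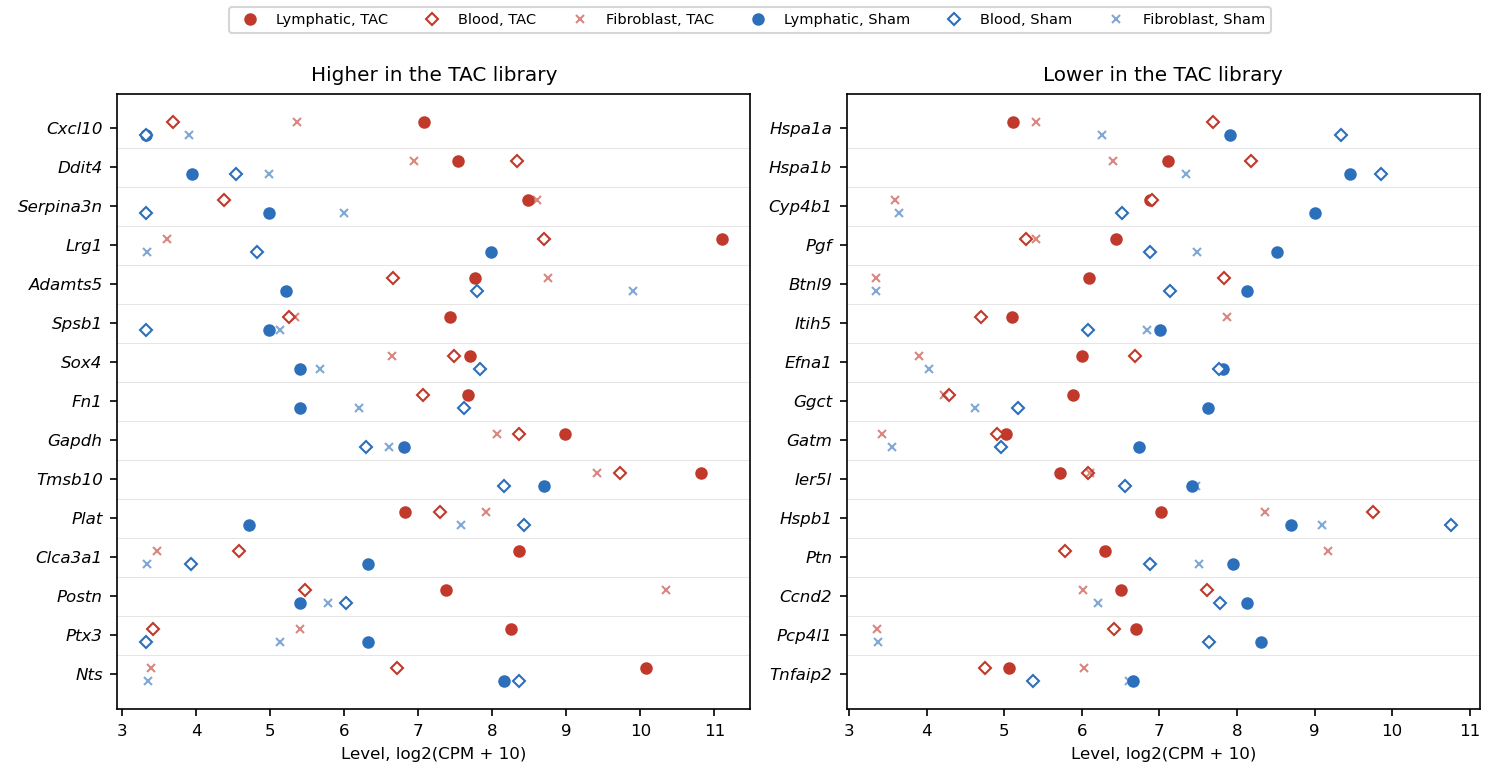
Levels as log2(CPM + 10) of the 15 genes with the largest differences in each direction between TAC (red) and sham (blue) in lymphatic cells (filled circles), with blood endothelial cells (open diamonds) and fibroblasts (crosses). Lrg1 is highest in TAC lymphatic cells, and for Nts, Fn1, Sox4, Plat, Adamts5 and Btnl9 the blood endothelial cells run the opposite way.

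Most genes of lymphatic identity and growth signalling were within 2-fold between libraries, as were most of all genes. Of all 3772 genes 3.21% were at least 2-fold higher and 2.84% at least 2-fold lower. Of the 20 measured further lymphatic genes 3 were at least 2-fold higher, Lrg1, Ptx3 and Nts, and none lower, with a median of 0.17. Of 14 measured lymphatic transcription factors 1 was at least 2-fold lower, Hhex at 53.5 CPM in TAC and 162 CPM in sham, and none higher, with a median of -0.18. Nr2f2, Maf, Tbx1 and Foxc2 were within log2 ratios of -0.19 to 0.14. Klf2 and Klf4, the flow-responsive factors, were at 1181 CPM in TAC and 2137 CPM in sham, and at 776 CPM in TAC and 1217 CPM in sham, with log2 ratios of -0.85 and -0.64. Of the surface genes Lyve1 was at 3151 CPM in TAC and 2842 CPM in sham, Nrp2 at 531 CPM in TAC and 528 CPM in sham, and Thy1 at 553 CPM in TAC and 559.9 CPM in sham. Of the 12 measured surface genes only Ackr2, a scavenger of inflammatory chemokines, was at least 2-fold higher, at 185 CPM in TAC cells and 64.6 CPM in sham cells. Kdr, VEGFR-2, was at 430.0 CPM in TAC and 393 CPM in sham, and the ligand Vegfc at 2.38 CPM in TAC and 0 CPM in sham. Vegfd was at 1.59 CPM in TAC and 0 CPM in sham, so both ligands were near 0 in LECs. Tie1, the orphan Tie receptor, was at 332 CPM in TAC and 178 CPM in sham, and Tek, its partner Tie2, at 111 CPM in TAC and 135 CPM in sham. Ramp2 and Calcrl, the adrenomedullin receptor parts, were at 1070.2 CPM in TAC and 839.8 CPM in sham, and at 222 CPM in TAC and 248 CPM in sham. Of the 4 measured genes in the VEGF-C list, Vegfb, Kdr, Nrp2 and Pgf, only Pgf passed 2-fold. Pgf, a ligand of Flt1, is not itself a VEGF-C or VEGF-D ligand or receptor.

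Interferon-induced genes were split between both directions. Of 25 measured interferon genes 3 were at least 2-fold higher, Ifi27l2a, Irf7 and Rsad2, and 4 lower. Their median was -0.35, where blood endothelial cells had 0.38. For this and the next lists, 3.21% of all genes were higher and 2.84% lower. Ifi27l2a was at 1055 CPM in TAC cells and 328 CPM in sham cells, 3.21-fold higher (2.49 to 4.21), while Gbp2, an interferon-induced GTPase, was at 67.4 CPM in TAC cells and 178 CPM in sham cells, 2.64-fold lower (1.76 to 3.85). The 11 measured genes of MHC class I presentation were all within 2-fold, with median -0.28. Il33, an alarmin, was at 112 CPM in TAC cells and 237 CPM in sham cells, 2.12-fold lower (1.51 to 2.92), seen in 12.5% (9.01 to 16.6) of TAC cells and 30.9% (19.1 to 44.8) of sham cells at equal depth. Il7 was at 187 CPM in TAC and 248 CPM in sham, and Ccl21a at 16694 CPM in TAC and 15429 CPM in sham. Valve and collecting genes had 3 of 13 higher, Fn1, Efnb2 and Gja4, and a median of 0.26. Gja4, connexin 37, was at 250.5 CPM in TAC cells and 118 CPM in sham cells, 2.12-fold higher (1.38 to 3.40). Blood endothelial genes had a median of 0.13 over 17 members, and -0.29 without the 2-marker cells, against 0.53 in blood endothelial cells. Plvap, the protein of fenestral diaphragms, was at 514 CPM in TAC cells and 210.0 CPM in sham cells, and Fabp4 at 1115 CPM in TAC cells and 522 CPM in sham cells. Without the 2-marker cells Fabp4 was at 729 CPM in TAC and 456 CPM in sham LECs, under 2-fold. Both its values are below 10% of those in blood endothelial cells.

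**Figure D5:**
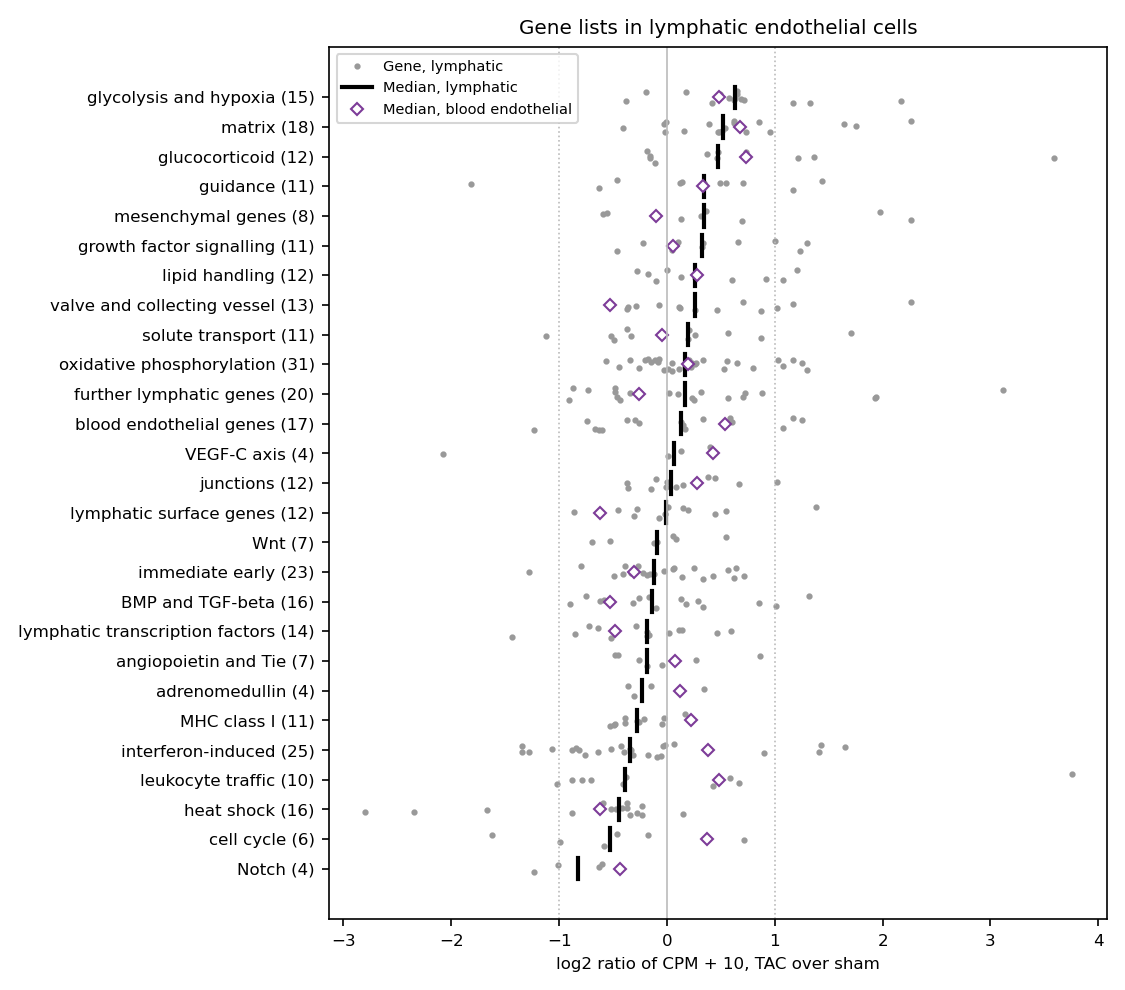
log2 ratios of CPM + 10, TAC over sham, of the measured members of each gene list in lymphatic cells (grey points, number in brackets), with the lymphatic median (black bar) and the blood endothelial median (diamond). Dotted lines mark 2-fold. Red cell genes (median 3.81) and the blood endothelial marker list are not drawn. Of the lists shown glycolysis and hypoxia genes have the highest lymphatic median, 0.63, and Notch genes the lowest, -0.82.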

How the data were processed

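Non-cardiomyocyte suspensions of 1 TAC and 1 sham group were captured with the Chromium Next GEM Single Cell 3' kit v3.1, per the labels' protocols. The deposited matrices hold raw UMI counts, and the file headers name Cell Ranger 3.1.0; mm10 and Seurat are named in the submitters' processing notes. Gene annotation used by the authors is not given in the sources used here; 30934 of 31053 gene IDs matched GENCODE vM21. Kept cells had at least 500 genes, at least 1000 UMIs and at most 15% mitochondrial UMIs, which removed 901 TAC and 462 sham barcodes. Doublets were not removed; Scrublet (Scanpy 1.11.5, rate 0.07) called 146 TAC and 70 sham cells, 2 and 0 of them members. Sums per class and library are CPM, ratios are log2 of CPM + 10, genes have a mean of at least 50 CPM, and sums of 0 are bounded with 3 counts over the class. No test or p-value was computed, since each group is 1 library. Macrophages had a Ptprc UMI and at least 2 of C1qa, C1qb, Csf1r, Adgre1 and Cd68, and fibroblasts at least 1% collagen and decorin UMIs and no endothelial or Ptprc UMI, both definitions set after the other choices. Named genes are the rule's own, the 15 largest ratios in each direction, and up to 6 members of each list, all transcription factor, surface and VEGF-C list members being allowed. The 15 in each direction for TAC against sham also needed, in the library where it was higher, at least 10% of their CPM in fibroblasts, macrophages and blood endothelial cells, which 19 genes missed, and mitochondrial, ribosomal, haemoglobin and sex-linked marker genes and unnamed models were left out. Members and lists were chosen with earlier results of these data known. Ratio and interval steps were tested on simulated data. Python 3.11.15, numpy 2.4.6, scipy 1.17.1 and pandas 2.3.3 were used.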

Additional observations from a re-analysis of the deposited data

Results flagged for a closer look

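In 6 named genes TAC over sham ran opposite ways in lymphatic and blood endothelial cells, with counting intervals on opposite sides of 1. The difference was not tested, with 1 library a group. The blood endothelial class was not split into capillary, arterial and endocardial cells. Among 11 measured markers of those cells, log2 ratios in the class ran from 3.13 for Rbp7 to -2.10 for Npr3. The part of its make-up in these directions was not tested. TAC over sham in lymphatic cells was 7.75 for Adamts5, 6.14 for Sox4, 5.99 for Fn1, 6.41 for Plat and 3.91 for Nts, where blood endothelial cells were lower in TAC. For Btnl9 the fold was 0.216, where blood endothelial cells were higher in TAC. Sham blood endothelial cells numbered 147 and sham lymphatic cells 67. Sham lymphatic cells held 5 UMIs of Adamts5, 6 of Sox4, 6 of Fn1 and 3 of Plat. Shares of cells with a UMI kept these directions at equal depth, but many intervals of TAC and sham overlapped. In blood endothelial cells they overlapped for Adamts5, Sox4, Fn1 and Btnl9, and in lymphatic cells for Sox4, Fn1 and Plat. For Nts they overlapped in neither class. Adamts5 was seen in 10.2% (7.81 to 13.1) of TAC and 11.9% (6.51 to 19.5) of sham blood endothelial cells.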

How the results depend on the processing

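The share ratio kept its direction under every alternative run, from 4.40 with cells thinned to 1000 UMIs to 4.94 with a 5% mitochondrial limit. Of the genes at least 2-fold higher in TAC, 121 became 73 at a mean of at least 100 CPM and 242 at 20 CPM; of those lower, 107 became 48 and 210 at those limits, 69 with median-of-ratios scaling and 233 with cells thinned to equal depth. Identity genes, 193 higher and 225 lower, became 115 and 134 at 100 CPM, and the lower ones 359 at 20 CPM. None of the 30 genes named for each comparison changed the sign of its ratio. Without 2-marker cells the blood endothelial list median changed sign to -0.29. That of the solute transport list, 0.20, was -0.37 to -0.07 under several alternatives, doublets left out among them. With median-of-ratios scaling those of the immediate early, lymphatic surface and Wnt lists changed sign to 0.01, 0.12 and 0.02. The BMP and TGF-beta median was 0.07 at equal depth. Among 30 named TAC-against-sham genes 9 of 330 recomputed ratios moved beyond their counting interval, and 3 of 266 list medians (glycolysis 0.75 with median-of-ratios scaling, heat shock -0.20 at equal depth, Notch -0.59 with totals without mitochondrial, ribosomal and haemoglobin genes). Of 270 identity ratios 14 moved, 11 of them with a pseudocount of 1 CPM. The causes were not tested. At equal depth the log2 ratios were Ptx3 0.99, Nts 1.53, Postn 4.05, Itih5 -3.00, Hspa1a -2.17 and Hspa1b -2.00. Leaving out the richest cell of each gene, an alternative chosen after seeing the data, moved only Cxcl10. Unthinned, 14 of 30 differences in shares of cells moved; for Hspb1 the share was then 2.41 percentage points higher in TAC. Sham members hold 185758 UMIs, so 1 UMI is worth 5.38 CPM there. No paired analysis was possible because each group has 1 library and no replicate numbers.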

Other observations

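In the growth factor list 2 of 11 measured genes were at least 2-fold higher in TAC LECs, Igfbp7 and Ednrb, and none lower. Igfbp7, an IGF-binding protein of vessels, was at 784 CPM in TAC cells and 312 CPM in sham cells, 2.51-fold higher (1.93 to 3.32), and in blood endothelial cells at 3595 CPM in TAC and 1453 CPM in sham. TAC fibroblasts held 8165 CPM of it, and the LEC level was below 10% of that. Ednrb, an endothelin receptor, was at 229 CPM in TAC cells and 91.5 CPM in sham cells, 2.50-fold higher (1.55 to 4.33), with 261 CPM in TAC and 247 CPM in sham blood endothelial cells. Sema3f, a secreted semaphorin that binds NRP2, was at 235 CPM in TAC cells and 80.8 CPM in sham cells, 2.92-fold higher (1.75 to 5.24). In the solute transport list 1 of 11 genes was higher and 1 lower. Slco2b1, an organic anion transporter, was at 66.6 CPM in TAC cells and 156 CPM in sham cells, 2.34-fold lower (1.52 to 3.49).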
